A study of Mus musculus with 10 samples.

Results

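The metallothionein genes Mt1 and Mt2, the zinc-sensing transcription factor gene Mtf1 and 5 metal transporter genes (Slc30a1, Slc30a10, Slc39a14, Slc39a4 and Slc39a5) were followed across 10 mouse livers. They are 8 of the 24537 gene symbols in the count table. The set was put together because Mt1 and Mt2 were far lower in old than in young livers, so every contrast of old with young livers describes these 8 genes and carries no test for them. The contrasts among old livers are not the ones the set was put together on, and they were tested, though with earlier results of these data known. All 8 genes passed the filter on low counts, which kept 13909 genes.

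Whole-liver RNA came from male mice that had all received an adeno-associated virus, AAV8-TBG-saCas9, which expresses a small Cas9 from TBG, a promoter active in hepatocytes, together with a guide RNA. Young control livers (n = 3) carried a guide to Rosa26, a site generally used as neutral, given at 7 months, and were taken at 9 months of age. Old control livers (n = 3) carried the same Rosa26 target, with virus at 23 months and harvest at 25 months. Old livers labelled Cd44 knockout (n = 4) had the virus and harvest at those same old ages with a guide to Cd44, a cell surface receptor gene, and 2 livers each had guide 4 (replicates 1 and 2) and guide 2 (replicates 3 and 4). The TBG promoter is meant to limit editing to hepatocytes and to leave Cd44 unedited in other liver cell types, which was not measured here. No liver without virus was analysed. Replicate numbers only name livers. The labels do not say outright that each library is a separate animal, and p-values measure the spread between these libraries.

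Metallothioneins are small cytosolic proteins in which cysteines hold zinc and copper, so that they buffer and store these metals and take up oxidants. When zinc rises in the cell, the zinc finger protein MTF1 enters the nucleus, binds metal response elements (MREs) and activates Mt1, Mt2 and the zinc exporter gene Slc30a1. In liver the metallothionein genes also respond to glucocorticoids and to interleukin 6. Transporters of the SLC30 family move zinc out of the cytosol and those of the SLC39 family move it in. Slc30a10 mainly exports manganese, and Slc39a14, a target of interleukin 6 signalling in hepatocytes, takes up zinc, iron and manganese.

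Mt1 (ENSMUSG00000031765.8) lies on chromosome 8 from 94179082 to 94180327, and Mt2 (ENSMUSG00000031762.7) from 94172664 to 94173568, both on the plus strand of GRCm38 in the GENCODE M21 annotation. The gap between them is 5513 bp. The coding sequences are shown because the cysteine codons are what makes these proteins metal binders. They are read from the GENCODE M21 transcripts, with each cysteine codon in capitals.
Mt1: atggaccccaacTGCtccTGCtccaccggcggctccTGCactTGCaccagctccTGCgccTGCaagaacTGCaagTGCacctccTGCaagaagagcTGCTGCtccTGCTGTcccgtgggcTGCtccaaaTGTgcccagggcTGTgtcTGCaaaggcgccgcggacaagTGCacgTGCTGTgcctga
Mt2: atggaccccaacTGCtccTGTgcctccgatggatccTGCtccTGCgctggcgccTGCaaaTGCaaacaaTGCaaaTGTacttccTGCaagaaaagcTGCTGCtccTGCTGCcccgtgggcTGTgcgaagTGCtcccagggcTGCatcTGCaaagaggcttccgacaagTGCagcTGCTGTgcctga
Each coding sequence is 186 bp long and has 61 codons before the stop, of which 20 encode cysteine. All 20 cysteine codons stand at the same positions in both genes. The coding sequences are 79.6% identical and differ at 38 bases, and the longest run shared by the 2 transcripts is 20 bp. A read confined to such a shared run could not be placed on 1 gene, and how the authors treated such reads is not given in the sources used here.

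The sequence before each gene is shown because it holds MREs, the sites through which zinc acts on these genes. The stretches come from the RefSeq promoter windows (GRCm38.p6, plus strand). That of Mt1 was ended just before the GENCODE start, and that of Mt2 ends just before the RefSeq start, which lies upstream of the GENCODE start at 94172664. They were searched for the MRE core TGCACNC or TGCGCNC on both strands, with matches in capitals. A match on the other strand reads as its reverse complement, such as GTGTGCA.
Mt1, chr8:94178839-94179081: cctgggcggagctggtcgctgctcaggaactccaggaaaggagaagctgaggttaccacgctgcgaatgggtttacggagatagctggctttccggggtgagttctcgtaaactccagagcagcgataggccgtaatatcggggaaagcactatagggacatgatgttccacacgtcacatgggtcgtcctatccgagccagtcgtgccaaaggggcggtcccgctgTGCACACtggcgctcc
Mt2, chr8:94172368-94172617: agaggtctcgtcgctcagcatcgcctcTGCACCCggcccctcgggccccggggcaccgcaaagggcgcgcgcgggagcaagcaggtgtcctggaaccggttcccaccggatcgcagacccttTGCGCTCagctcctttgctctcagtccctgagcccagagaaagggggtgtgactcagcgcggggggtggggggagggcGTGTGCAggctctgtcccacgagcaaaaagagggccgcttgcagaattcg
The Mt1 stretch of 243 bp held 1 match and the Mt2 stretch of 250 bp held 3. Across 32851 RefSeq windows of 250 bases before a gene start, 21.4% held at least 1 match and 1.26% at least 3. The GENCODE starts of both genes lie upstream of the TATA box (TATAAA), by 128 bases for Mt1 and by 89 for Mt2. Further MRE cores therefore fall inside the annotated transcript, between its start and the TATA box. They are given with their flanks and with the number of bases between the site and the TATA box.
Mt1, 112 bases before the TATA box: gagctcTGCACTCcgcccg
Mt1, 94 bases before the TATA box: gaaaagTGCGCTCggctct
Mt1, 30 bases before the TATA box: cctgctGGGTGCAaaccct
Mt1, 16 bases before the TATA box: acccttTGCGCCCggactc
Mt2, 70 bases before the TATA box: aagggcGTGTGCAggcggc
Mt2, 51 bases before the TATA box: gggggcGCGTGCAtggtgc
Mt2, 17 bases before the TATA box: agctttTGCGCTCgaccca
Counted over the whole region searched, each gene had 5 MRE cores within the 250 bases before its TATA box. For Mt1 these are the sites printed. For Mt2 they are the 3 sites with flanks, the last of the 3 matches in the stretch, and 1 more between the stretch and the GENCODE start, which is not printed, while the first 2 matches of the stretch lie farther away. Among the annotated-start windows, which are anchored differently, 0.082% held at least 5. A match is a description of letters and does not show binding.

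**Figure D1:**
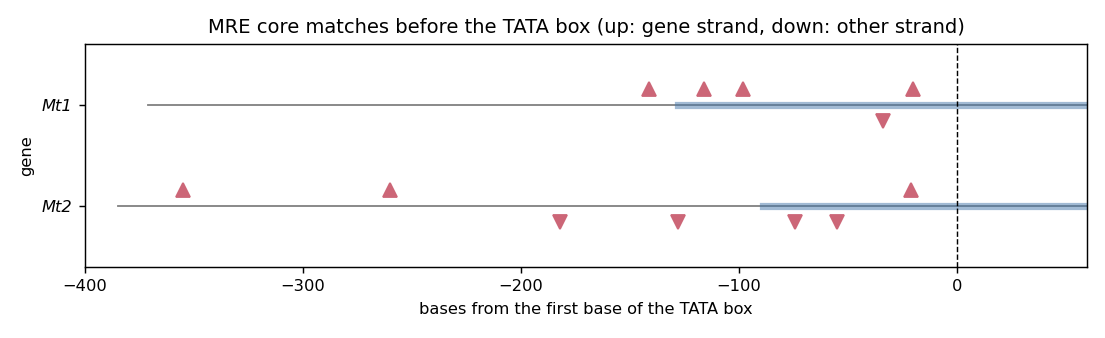
Positions of MRE core matches before the TATA box of Mt1 and Mt2, in bases from the first base of the TATA box (x axis). Triangles up are matches on the gene's strand and triangles down on the other strand, the gray line is the region searched and the thick blue line is the annotated transcript. Each gene has 5 matches within 250 bases of the TATA box.

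RefSeq promoter windows were found for 6 of the 8 genes, 7 windows in all, since Slc39a5 has 2. Slc30a1 held 1 MRE core and Slc30a10 held 3, of which 2 overlap on opposite strands. Mtf1 held 0. One Slc39a5 window held 1 and the other 0. The antioxidant response core TGACNNNGC, the site of the oxidative stress factor NRF2, was matched once in Mt2 and once in Slc30a1 and 2 times in 1 Slc39a5 window. It occurs in 10.2% of all windows. The STAT core TTCNNNGAA (7.02% of windows) and the E-box CACGTG (6.02% of windows) were matched in none of the 7.

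Total counts per liver ranged from 15821198 to 21710228, and 3 counts, taken as the smallest detectable amount, corresponded to 0.131 to 0.198 CPM, counts scaled to library size. Such floors cover counting error only. Levels are CPM scaled with TMM factors, which were 0.823 to 0.897 in young and 0.966 to 1.12 in old livers. Scaling by total counts alone moved the median log2 fold change of all genes between old and young control livers by 0.306, and raised the share of higher genes among those changed from 62% to 91.6%. Whole-liver Cd44 was 23.4 ± 8.19 CPM in old control livers (SD, n = 3) and 19.7 ± 6.71 CPM in livers labelled knockout (SD, n = 4), and edgeR gave an adjusted p of 0.896. Cd44 counts thus did not separate these groups, and directions below rest on the labels. The library name of old control replicate 3 stands outside the run of the other names. Results that it moves are given without it, save for the medians, directions and sums of gene lists. Hepatocyte markers summed to 99400 to 127900 CPM in young livers, 83110 to 107500 CPM in old control livers and 88630 to 93330 CPM in livers labelled knockout, with none of the 8 at 0 in every liver.

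Mt1 and Mt2 were far lower in old than in young livers. Mt1 had 658, 1513 and 777 CPM in young replicates 1 to 3. Old control livers had 18.6, 26.3 and 60.3 CPM. In livers labelled knockout it stood at 19.8 and 53.4 CPM (guide 4) and at 10.6 and 11.5 CPM (guide 2). No old liver came near the lowest young liver, and the highest old value was that of old control replicate 3. The mean was 983 ± 463 CPM in young livers (SD, n = 3), 35.1 ± 22.2 CPM in old control livers (SD, n = 3) and 23.8 ± 20.1 CPM in livers labelled knockout (SD, n = 4). Young livers thus held 28.03 times the Mt1 level of old control livers, a log2 fold change of -4.81 (SE 0.71), and 41.2 times that of livers labelled knockout. In bulk RNA, fewer cells of a type and less RNA per cell cannot be told apart.

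Mt2 showed the same order. It had 727, 1826 and 769 CPM in young replicates 1 to 3 and 9.63, 14.5 and 72.3 CPM in the old control livers. In livers labelled knockout it stood at 16.4 and 30.9 CPM (guide 4) and at 8.43 and 5.78 CPM (guide 2). Young replicate 2 was the highest liver for both genes and old control replicate 3 was the highest of the old. Means were 1107 ± 623 CPM in young (SD, n = 3), 32.1 ± 34.8 CPM in old control livers (SD, n = 3) and 15.4 ± 11.3 CPM in knockout-labelled livers (SD, n = 4). The young level was 34.4 times that of old controls, a log2 fold change of -5.11 (SE 0.88), and 72.0 times that of livers labelled knockout.

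By log2 fold change between old and young control livers, Mt2 ranked 1 and Mt1 ranked 4 from the lowest among 13909 genes. In the contrast of livers labelled knockout with young livers they ranked 1 and 2. Both contrasts share the young livers. Without old control replicate 3 the age differences were -5.46 for Mt1 and -6.52 for Mt2 on the log2 scale.

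The 2 metallothionein genes together took 0.119% to 0.275% of all counts in young livers and 0.00187% to 0.0128% in old livers. Ordered by CPM among the genes kept, Mt1 stood at places 102 to 221 in young livers and at places 2405 to 7955 in old livers. Mt2 stood at places 86 to 200 in young and 2032 to 9619 in old livers. In young livers both genes were thus among the abundant transcripts, and in old livers they were not.

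The balance of the pair also differed among livers. The ratio of Mt1 to Mt2 CPM was 0.906, 0.8289 and 1.01 in young replicates 1 to 3. It was 1.93, 1.81 and 0.834 in old control livers, and 1.21 and 1.73 with guide 4 and 1.26 and 1.99 with guide 2. Old control replicate 3, the old liver with the most metallothionein RNA, had a ratio inside the young range, and the other old livers had ratios above it. The counts behind the lowest Mt2 value, in knockout replicate 4, were 99.

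**Figure D2:**
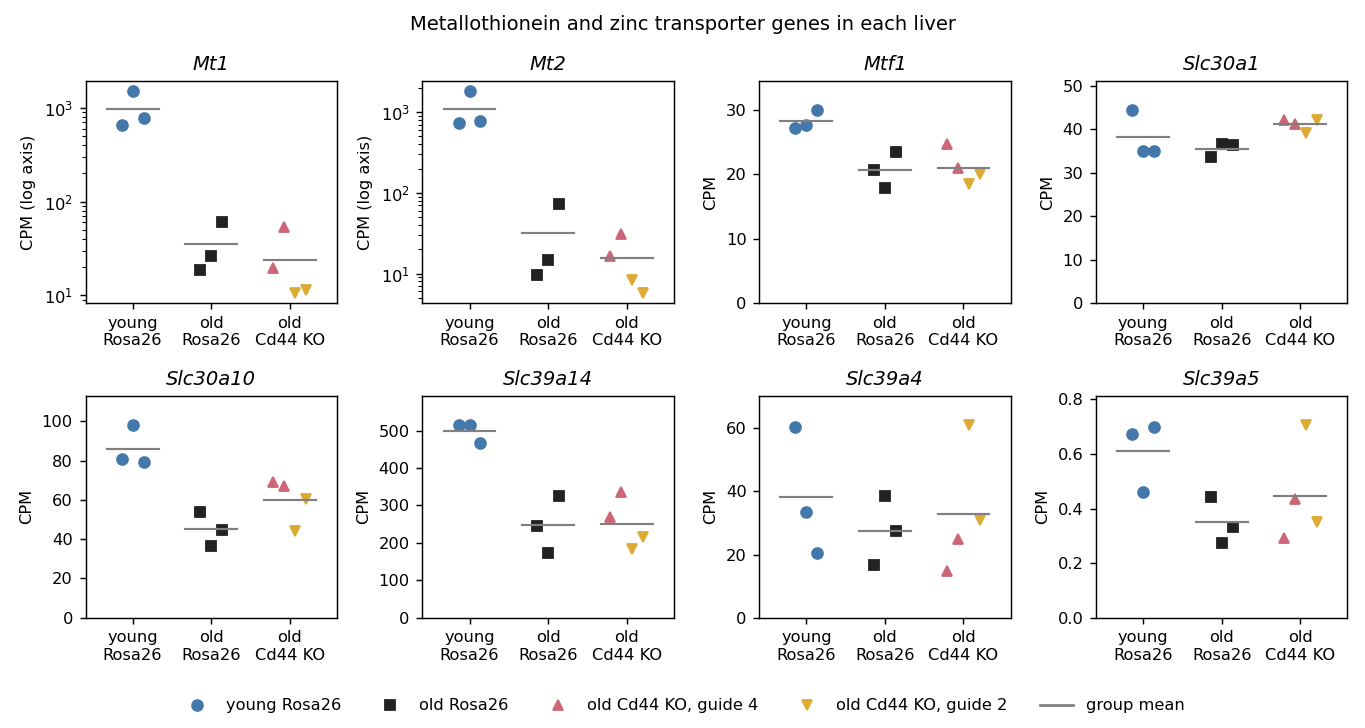
Level of each of the 8 genes (CPM with TMM factors, y axis, a log axis for Mt1 and Mt2) in every liver, by group (x axis). Points are livers, with separate symbols for guides 4 and 2, and bars are group means. Mt1 lies between 658 and 1513 CPM in young livers and at or below 60.3 CPM in every old liver, while Slc30a1 lies between 33.6 and 44.5 CPM in all livers.

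Mtf1, the zinc sensor that activates the metallothionein genes, differed far less. It had 27.3, 27.7 and 30.0 CPM in young livers and 20.7, 17.9 and 23.5 CPM in old control livers. In livers labelled knockout it stood at 24.7 and 21.0 CPM (guide 4) and at 18.6 and 20.02 CPM (guide 2). All young livers were above all old livers, by a log2 fold change of -0.45 (SE 0.14) for old control livers. With scaling by total counts alone this was -0.16, so its size depended on the scaling.

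Slc30a1 is the exporter of the plasma membrane and a classical MTF1 target. It had 44.5, 35.0 and 35.0 CPM in young livers and 33.6, 36.7 and 36.4 CPM in old control livers. The young and old control groups overlapped, and the log2 fold change of -0.10 (SE 0.12) turned to 0.20 under scaling by total counts and to 0.019 without young replicate 1. Slc30a10, the manganese exporter, had 80.9, 98.2 and 79.1 CPM in young livers and 53.6, 36.6 and 44.5 CPM in old control livers. The groups did not overlap, the young mean of 86.1 ± 10.51 CPM being 1.92 times the old control mean of 44.9 ± 8.52 CPM (SD, n = 3 each). The log2 fold change was -0.94 (SE 0.19), and -0.63 under scaling by total counts. Livers labelled knockout had 69.3 and 66.9 CPM (guide 4) and 44.0 and 60.3 CPM (guide 2), all below the young livers.

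Among the 3 importers of the set, Slc39a14 differed most. It had 515, 515.3 and 466 CPM in young livers and 244, 173 and 326 CPM in old control livers. In livers labelled knockout it stood at 268 and 336 CPM (guide 4) and at 182 and 215 CPM (guide 2). All old livers were below all young livers, with means of 499 ± 28.3 CPM in young and 248 ± 76.3 CPM in old control livers (SD, n = 3 each), -1.01 on the log2 scale (SE 0.25). Old control replicate 3 was the old control nearest to the young livers, as for Mt1 and Mt2.

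Slc39a4, best known as the zinc importer of the intestine, had 60.3, 33.4 and 20.7 CPM in young livers and 16.8, 38.5 and 27.4 CPM in old control livers. With guide 4 it had 14.8 and 24.8 CPM, and with guide 2 it had 61.1 and 30.9 CPM. The young, old control and knockout-labelled groups overlapped, while the guide 4 livers were both below the guide 2 livers. Slc39a5, a zinc importer of the basolateral membrane in intestine and pancreas, was close to the floor, with 0.462 to 0.697 CPM in young, 0.273 to 0.442 CPM in old control and 0.291 to 0.706 CPM in knockout-labelled livers. These values rest on 5 to 15 counts per liver. Its young and old control livers did not overlap, with a log2 fold change of -0.80 (SE 0.44), or -0.50 under scaling by total counts. At 5 to 15 counts this order has little precision.

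Of the 8 genes, 6 had old control livers wholly below young livers and 0 had them wholly above. Over all 13909 genes 18% were wholly below and 19.7% wholly above. For livers labelled knockout against young livers the count was 5 below and 0 above, where all genes gave 18.8% and 21.1%. The set was chosen on this contrast, so nothing is read from these counts.

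Levels of different genes were compared per kilobase, using 1 GENCODE transcript for each gene. In young livers the order of the mean CPM per kilobase was Mt2 at 2167, Mt1 at 1790, Slc39a14 at 238, Slc39a4 at 18.5, Slc30a10 at 14.8, Slc30a1 at 7.28, Mtf1 at 3.71 and Slc39a5 at 0.314. In old control livers Slc39a14 led at 118 CPM per kilobase, followed by Mt1 at 63.9, Mt2 at 62.9, Slc39a4 at 13.4, Slc30a10 at 7.70, Slc30a1 at 6.78, Mtf1 at 2.71 and Slc39a5 at 0.180. The importer Slc39a14 thus stood below both metallothionein genes in young livers and above both in old livers. Neighbours in this order that differed by less than the larger of their SDs were Mt2 and Mt1 in both groups, Slc39a4 and Slc30a10 in young livers, and Mt2 and Slc39a4 as well as Slc30a10 and Slc30a1 in old control livers. In livers labelled knockout Slc39a14 led as well, at 119 CPM per kilobase, followed by Mt1 at 43.4 and Mt2 at 30.1.

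Of 19 other SLC30 and SLC39 genes, 16 could be tested, and 2 fell and 1 rose in old against young control livers at the threshold (adjusted p under 0.05) by the quasi-likelihood test of edgeR. That is 3 of 16, near the share over all genes, of which 22.8% were called, 14.1% higher and 8.66% lower. The median log2 fold change of the 16 was -0.29, against 0.04 over all genes. Scaling by total counts shifts genes together (0.306 in the median over all genes), so both medians move with it. The cause of their difference was not tested.

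Among the 6 exporters tested, of 8 listed, 1 fell and 0 rose. Slc30a5, which loads zinc into the early secretory pathway, fell from 82.5 ± 3.22 to 37.6 ± 13.1 CPM (mean ± SD, n = 3 each), -1.13 ± 0.23 (SE) on the log2 scale, with an adjusted p of 0.011 by edgeR. Without young replicate 2 its edgeR adjusted p was 0.053. Slc30a4, Slc30a7 and Slc30a9 had log2 fold changes of -0.29, -0.33 and -0.33, none past the threshold.

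Among the 10 importers tested, of 11 listed, 1 fell and 1 rose. Slc39a10, a plasma membrane zinc importer, fell from 7.87 ± 2.11 to 3.82 ± 0.937 CPM (mean ± SD, n = 3 each), -1.04 ± 0.28 (SE) on the log2 scale, with an adjusted p of 0.0267 by edgeR. Slc39a13, which moves zinc out of Golgi vesicles, rose from 10.8 ± 1.61 to 16.2 ± 1.25 CPM (mean ± SD, n = 3 each), 0.59 ± 0.16 (SE) on the log2 scale, with an adjusted p of 0.0267 by edgeR. Both calls were lost in 6 of 12 other settings. Over both families the count of 3 became 0 without young replicate 2 and 7 without old control replicate 3. The exporter count ran from 0 to 3 and the importer count from 0 to 4 in the fits that left out 1 liver, with the importers at 0 without young replicates 2 or 3 or old control replicates 1 or 2.

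**Figure D3:**
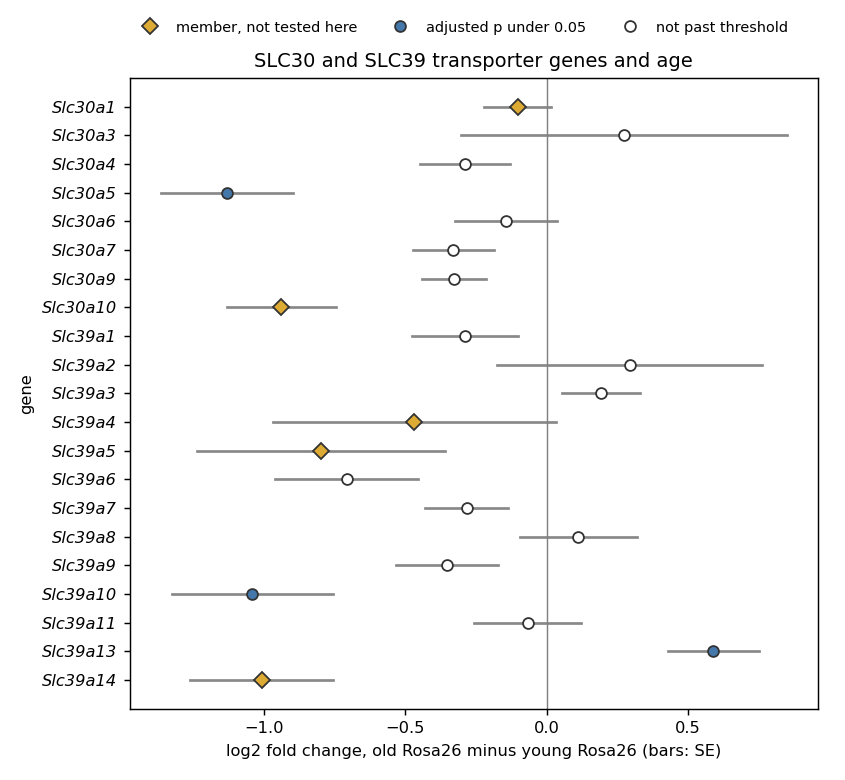
Log2 fold change between old and young control livers (x axis, bars are SE) for each tested SLC30 and SLC39 gene (y axis). Diamonds are the 5 transporter genes chosen with the metallothioneins, which carry no test, blue circles passed an edgeR adjusted p under 0.05 and white circles did not. Slc30a5 and Slc39a10 lie at -1.13 and -1.04, and Slc39a13 lies at 0.59.

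The other metallothionein genes in the table, Mt3 and Mt4, known from brain and stratified epithelia, had at most 2 counts in any liver and could not be tested. Of all genes 8.66% fell and 14.1% rose, and of 14 copper handling genes 1 fell and 0 rose. This was Sco1, a mitochondrial copper chaperone, at 17.1 ± 0.607 CPM in young and 12.2 ± 1.29 CPM in old control livers (SD, n = 3 each; log2 fold change -0.49, SE 0.13, edgeR adjusted p 0.0263). The exporters Atp7a and Atp7b and the importer Slc31a1 had log2 fold changes of 0.25, 0.41 and -0.28, none past the threshold. Steap4 also did not pass, with 865 ± 142 CPM in young and 255 ± 261 CPM in old control livers (SD, n = 3 each). Its old control livers were wholly below the young, as for 18% of all genes. The median of the copper list was -0.05. Counts in other settings, here and for the lists below, take falls and rises together. That of the copper list ran from 0 to 3 when 1 liver was left out. It was 0 without any 1 of the young livers or without old control replicate 2, and 3 without old control replicates 1 or 3.

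Of 8 genes tested from a list of metal and zinc stress targets, 3 fell and 0 rose, where 8.66% of all genes fell. The list median was 0.28. Hspa1b, an inducible heat shock protein 70 gene, fell from 70.3 ± 31.6 to 9.44 ± 2.72 CPM (mean ± SD, n = 3 each), -2.90 ± 0.32 (SE) on the log2 scale, with an adjusted p of 0.00648 by edgeR. Its near-identical copy Hspa1a fell by 2.56 on the log2 scale (edgeR adjusted p 0.00667), and the division of reads between both is uncertain. Gclc, an enzyme of glutathione synthesis, fell by 0.83 on the log2 scale (edgeR adjusted p 0.0412), and this call was lost in 7 of 12 other settings. The list's count, of falls and rises together, was 6 under scaling by total counts and 5 without old control replicate 3. It was 2 without young replicates 1 or 2 or old control replicate 2. With TMM scaling of all livers only 3 of the 8 lay below 0 and 5 lay above, so the larger counts are not counts of falls.

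Glucocorticoid targets were examined because these hormones induce Mt1 and Mt2. Of 13 genes 5 fell and 0 rose, where 8.66% of all genes fell, with a median log2 fold change of -0.70. Angptl4, an inhibitor of lipoprotein lipase, fell from 181 ± 40.2 to 54.8 ± 6.51 CPM (mean ± SD, n = 3 each), -1.73 ± 0.28 (SE) on the log2 scale, with an adjusted p of 0.00772 by edgeR. Fkbp5, a chaperone of the glucocorticoid receptor, fell from 111 ± 28.01 to 38.9 ± 13.0 CPM (mean ± SD, n = 3 each), -1.51 ± 0.25 (SE) on the log2 scale, with an adjusted p of 0.00798 by edgeR. Lpin1, Tat and Tsc22d3 fell by 0.99, 0.84 and 0.70 on the log2 scale (edgeR adjusted p from 0.0152 to 0.0479). Angptl4 and Fkbp5 passed in all 12 other settings, and the list's count was 3 without young replicates 1 or 2, without old control replicate 1, and under scaling by total counts.

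Of 20 acute phase genes 3 fell and 0 rose, where 8.66% of all genes fell. Their median log2 fold change was -0.46, with 19 of 20 below 0. Saa2, a serum amyloid A gene, fell from 834 ± 185 to 118 ± 99.3 CPM (mean ± SD, n = 3 each), -2.82 ± 0.82 (SE) on the log2 scale, with an adjusted p of 0.0332 by edgeR, and reads may be shared with its close copy Saa1, which also fell (edgeR adjusted p 0.0492). Serpina3n, a serine protease inhibitor gene, fell by 1.84 on the log2 scale (edgeR adjusted p 0.0129). The list's count was 0 without young replicate 2 or without old control replicate 2, and 13 without old control replicate 3.

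Of 13 NRF2 targets 5 fell and 0 rose, where 8.66% of all genes fell, with a median of -0.57. Gsta1 and Gstm1, glutathione transferase genes with close copies, fell by 1.79 and 1.12 on the log2 scale, Srxn1 and Txnrd1, which reduce oxidised proteins, by 1.31 and 0.89, and glutathione reductase Gsr by 0.57 (edgeR adjusted p from 0.0252 to 0.0443). The count was 0 without young replicate 2 or without old control replicates 1 or 2, and 3 under scaling by total counts.

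Neighbouring genes within 250 kb of the metallothionein pair were examined one by one. Nup93, the nearest tested gene at 34237 bp, had 8.37 ± 0.463 CPM in young and 8.27 ± 1.31 CPM in old control livers (SD, n = 3 each), -0.02 on the log2 scale (SE 0.19). Herpud1, an endoplasmic reticulum stress gene 206111 bp away, fell from 790.5 ± 91.8 to 281 ± 26.9 CPM (mean ± SD, n = 3 each), -1.49 ± 0.20 (SE) on the log2 scale, with an adjusted p of 0.00667 by edgeR. Bbs2, Gnao1, Nudt21 and Ogfod1 had log2 fold changes of 0.63, 0.46, 0.02 and -0.29, none past the threshold, and Slc12a3 had too few counts to test. The Herpud1 call was kept in all 12 other settings.

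Markers of other cell types differed between young and old control livers, where 14.1% of all genes rose and 8.66% fell. Kupffer cell and macrophage markers summed to 156 to 200 CPM in young, 294 to 1039 CPM in old control and 246 to 458 CPM in knockout-labelled livers, and 6 of 8 rose with age. Endothelial markers summed to 181 to 254, 353 to 428 and 250 to 303 CPM (6 of 8 rose), and stellate cell markers to 144 to 221, 280 to 437 and 246 to 288 CPM (4 of 6 rose). Neutrophil markers summed to 3.29 to 8.63, 13.6 to 280 and 7.38 to 22.1 CPM (4 of 4 tested rose), T cell markers to 2.34 to 3.43, 2.77 to 41.9 and 7.06 to 19.8 CPM (3 of 5 rose), and B cell markers to 3.42 to 7.71, 8.01 to 33.2 and 20.5 to 28.4 CPM (4 of 5 rose). Of 8 hepatocyte markers 2 fell, with a median of -0.50, 0 of 5 cholangiocyte markers changed (sums of 48.9 to 105, 93.6 to 133 and 80.8 to 165 CPM), and 1 of 5 erythroid markers fell (sums of 1136 to 1219, 867 to 1743 and 1036 to 2298 CPM). In livers labelled knockout against young livers, 0 of 8 macrophage, 1 of 8 endothelial, 3 of 6 stellate and 0 of 4 neutrophil markers rose by edgeR. Of T cell markers 4 of 5 rose there, and of B cell markers 4 of 5, where 1614 of 13909 genes changed. The marker counts were not repeated with a liver left out. No marker was at 0 in every liver. Their part in the values above was not tested.

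The tested question for the 8 genes was whether old livers labelled knockout differed from old controls. By the quasi-likelihood test of edgeR, 0 of the 8 genes passed an adjusted p of 0.05, as did 0% of all genes, and the 8 adjusted p values ran from 0.748 to 0.995. At an unadjusted p under 0.05 there was 1 of 8, where all genes gave 6.59%. No gene of the 8 passed in DESeq2 either, which called 8 other genes.

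Mt1 differed by -0.55 on the log2 scale (95% interval -1.81 to 0.71, edgeR adjusted p 0.875) and Mt2 by -1.06 (95% interval -2.61 to 0.49, edgeR adjusted p 0.798). Both differences rested on 1 liver: without old control replicate 3 they were 0.093 for Mt1 and 0.35 for Mt2. Neither interval excludes 0.

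The gene with the smallest p was Slc30a10, higher in livers labelled knockout. Its means were 44.9 ± 8.52 CPM in old controls (SD, n = 3) and 60.1 ± 11.4 CPM in livers labelled knockout (SD, n = 4), a log2 fold change of 0.42 (95% interval 0.03 to 0.82, unadjusted p 0.0387 and adjusted p 0.748 in edgeR). The groups overlapped, since guide 2 replicate 3 had 44.0 CPM. Over the other settings the log2 fold change ran from 0.29 to 0.57, and the smallest adjusted p, by any of the tools, was 0.191.

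Slc30a1 was the only one of the 8 whose groups did not overlap, where 2.84% of all genes were wholly higher and 3.26% wholly lower in livers labelled knockout. It had 33.6, 36.7 and 36.4 CPM in old controls, 42.2 and 41.1 CPM in the guide 4 livers, and 39.1 and 42.2 CPM in the guide 2 livers. Its log2 fold change was 0.21 (95% interval -0.03 to 0.46, edgeR adjusted p 0.765), a narrow gap between tight groups. Mtf1, Slc39a14, Slc39a4 and Slc39a5 differed by 0.03, 0.01, 0.26 and 0.37 on the log2 scale, with intervals that span 0. For Mtf1 the interval of -0.26 to 0.31 was narrow, and for Slc39a4 that of -0.77 to 1.29 was wide.

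None of the other zinc transporters passed in this comparison (0 of 16, median log2 fold change -0.02, the same as over all genes), nor did any gene of the copper, metal stress, glucocorticoid, acute phase or NRF2 lists. Their median log2 fold changes were -0.02, -0.23, 0.03, -0.26 and 0.43. Of the NRF2 targets 12 of 13 lay above 0, and of the acute phase genes 17 of 20 lay below 0. These directions were not counted without old control replicate 3, the highest old liver for Saa1, Saa2 and Orm2 (438, 228 and 217 CPM). All 8 Kupffer cell and macrophage, 8 endothelial, 6 stellate and 4 tested neutrophil markers had log2 fold changes below 0 in livers labelled knockout, with medians of -1.03, -0.57, -0.38 and -3.31 and 0 past the threshold by edgeR. The other marker lists were mixed, with 4 of 5 B cell, 3 of 5 T cell and 3 of 5 erythroid markers above 0. Their medians were 0.64, 0.08 and 0.06. Of hepatocyte markers 4 of 8 lay above 0 and of cholangiocyte markers 2 of 5, again with 0 past the threshold. Old control sums spread widely, from 13.6 to 280 CPM for neutrophil and from 294 to 1039 CPM for macrophage markers. Ngp ran from 0.541 to 63.0 CPM in old controls, with a mean of 21.4 ± 36.1 CPM (SD, n = 3). The highest old control for all 4 tested neutrophil markers was replicate 2, not replicate 3. This liver thus weighs heavily on the neutrophil median. The summed endothelial markers did not overlap between the groups, and those of the macrophage, stellate and neutrophil lists did. Their part in the values of the 8 genes was not tested.

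**Figure D4:**
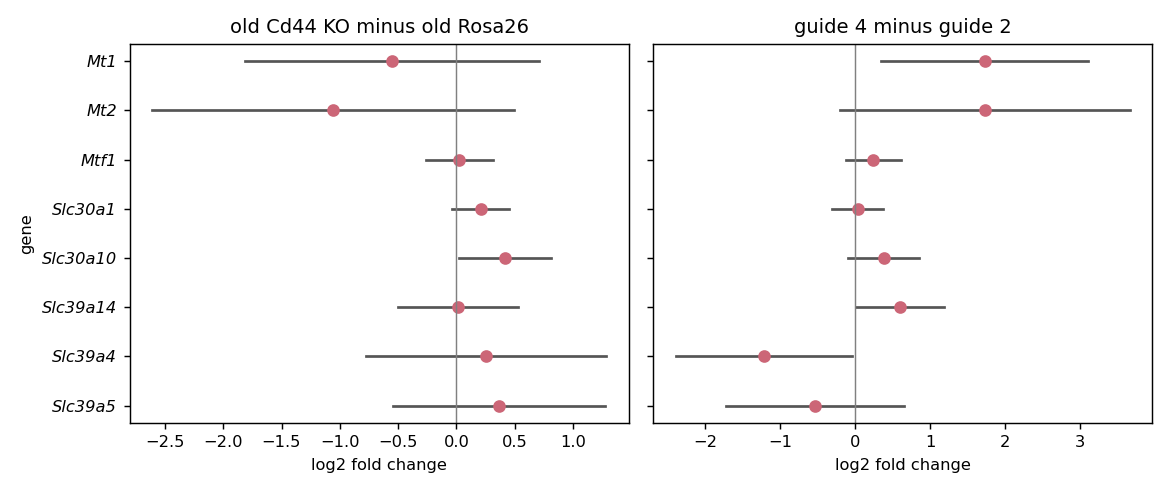
Log2 fold changes (x axis) of the 8 genes (y axis) between livers labelled knockout and old controls (left) and between guide 4 and guide 2 (right), with points for estimates and lines for 95% intervals from the edgeR fit. On the left only the interval of Slc30a10, 0.03 to 0.82, leaves out 0, and on the right those of Mt1, Slc39a14 and Slc39a4 do, with 0 of 8 genes past an adjusted p of 0.05 in either panel.

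The 2 Cd44 guides, with 2 livers each, gave the other contrast among old livers. By the quasi-likelihood test of edgeR, 0 of 8 genes passed an adjusted p of 0.05, where 0.0216% of all genes did, and 3 of 8 had an unadjusted p under 0.05, where all genes gave 4.34%. Mt1 was higher with guide 4, with 19.8 and 53.4 CPM where guide 2 livers had 10.6 and 11.5 CPM, or by 1.73 on the log2 scale (95% interval 0.34 to 3.11, unadjusted p 0.0193 and adjusted p 0.900 in edgeR). Mt2 had a nearly equal log2 fold change of 1.73 with a wider interval of -0.20 to 3.66 (adjusted p 0.9995 in edgeR). Slc39a14 was higher with guide 4 by 0.60 (95% interval 0.02 to 1.18, unadjusted p 0.044 in edgeR), and Slc39a4 was lower, at -1.22 on the log2 scale (95% interval -2.39 to -0.04, unadjusted p 0.0436 in edgeR).

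Without overlap, 5 of the 8 genes were higher with guide 4 (Mt1, Mt2, Mtf1, Slc30a10 and Slc39a14) and 1 was lower (Slc39a4). With 2 livers against 2 such separation is common, at 18.1% of all genes higher and 20.4% lower. Of the acute phase genes 19 of 20 lay above 0 with guide 4, with a median log2 fold change of 0.72, and of the NRF2 targets 13 of 13 lay below 0, with a median of -0.64. The median over all genes was 0.0031. By edgeR 0 genes of either list passed, and in the other settings at most 1 acute phase gene and 3 NRF2 targets did. The labels give no batch for the guides, so guide and any batch cannot be told apart.

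How the genes varied together was asked over the 7 old livers, since young livers lie apart for Mt1 and Mt2. Mt1 and Mt2 went together, with Pearson's r of 0.939 (exact permutation p 0.00119, 0.0333 after Benjamini-Hochberg adjustment over 28 pairs) and Spearman's rho of 0.929 (exact permutation p 0.00675, adjusted 0.189), both two-sided on log2 CPM. Without the 2 livers farthest from the median of Mt1, r was 0.826, and leaving out each liver in turn gave 0.922 to 0.951. This was the 1 pair of 28 that passed with Pearson's r, and 0 pairs passed with Spearman's rho, where the smallest p that the pairings allow is 0.000397.

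The relations of Slc39a14 to the metallothioneins did not pass. Its r was 0.745 with Mt1 (exact permutation p 0.0536, adjusted 0.306), which became 0.0915 without the 2 livers farthest from the median of Mt1, so this relation rests on those livers. With Mt2 it was 0.737 (exact permutation p 0.0546, adjusted 0.306) and 0.721 without the 2 livers farthest from the median of Mt2. Mtf1 and Slc39a14 had r of 0.785 (exact permutation p 0.0355, adjusted 0.306) and rho of 0.857 (exact permutation p 0.0238, adjusted 0.319). With Mt1, r was -0.187 for Slc30a1 and -0.0107 for Slc30a10 (exact permutation p 0.672 and 0.982). Groups, guides and livers are mixed in these 7 points.

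Across the 9954 other genes with a mean of at least 5 CPM, the 6 whose log2 CPM most resembled the mean of Mt1 and Mt2 over the 7 old livers were Tgm1, Saa1, E2f8, Orm2, Saa2 and Lima1. Pearson's r was 0.987, 0.973, 0.968, 0.967, 0.965 and 0.965, as a description of the most similar of many genes. Without old control replicate 3 it was 0.976, 0.958, 0.934, 0.935, 0.949 and 0.974 over 6 livers. Saa1, Saa2 and Orm2 encode acute phase proteins secreted by hepatocytes, Tgm1 a transglutaminase, E2f8 a cell cycle transcription repressor and Lima1 an actin-binding protein.

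In old control replicates 1 to 3 the Saa1 level was 50.7, 165 and 438 CPM. The guide 4 livers had 99.9 and 257 CPM of it and the guide 2 livers 47.2 and 31.9 CPM. Old control replicate 3 was highest, knockout replicate 2 was next and the guide 2 livers were lowest, which is also the order of the summed Mt1 and Mt2 at those ends, with 132.6, 84.3, 19.1 and 17.3 CPM. The Saa1 order matched that of the mean of Mt1 and Mt2 in all 7 old livers (Spearman's rho 1). This was not particular to Saa1, since rho was also 1 for E2f8, Saa2 and Lima1, and 0.964 for Tgm1 and 0.929 for Orm2. In young livers Saa1 lay at 1061 to 1480 CPM, and young replicate 2 was highest for Saa1 as for Mt1 and Mt2. Orm2 did not separate young from old in the same way, since old control replicate 3, at 217 CPM, exceeded all young livers, at 71.8 to 124 CPM. These genes were picked from the same 7 livers and share libraries, depth and scaling with the metallothioneins, so no test is attached.

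**Figure D5:**
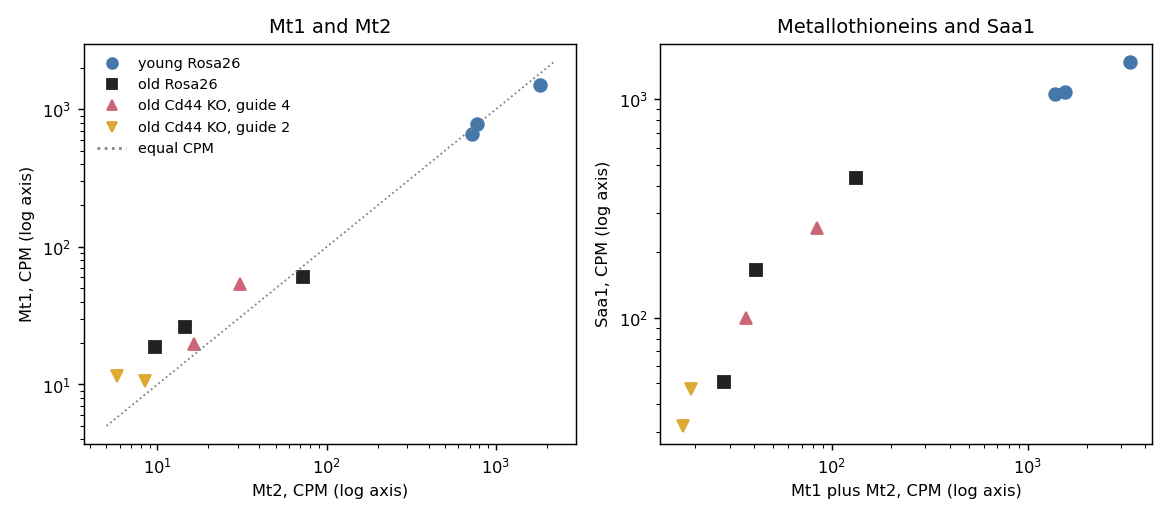
Mt1 against Mt2 (left) and Saa1 against the sum of Mt1 and Mt2 (right) in each of the 10 livers, in CPM on log axes, with symbols for group and guide and a dotted line at equal CPM on the left. Young livers lie apart at the upper right, and among old livers old control replicate 3 is highest and the guide 2 livers are lowest, with a correlation of 0.939 between Mt1 and Mt2 over the 7 old livers.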

How the data were processed

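RNA was measured by sequencing of polyadenylated RNA, per the labels' protocols. The authors deposited raw read counts per gene symbol for each of the 10 livers, without normalization. The submitters' processing notes name mm10, FastQC 0.11.8, Trim Galore 0.4.4, STAR 2.5.3a and HOMER, without saying what each did. Annotation and use of strand are not given in the sources used here.

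Counts were analysed with edgeR 4.0.16 in R 4.3.3: TMM factors, filterByExpr (minimum count 10, minimum total 15), quasi-likelihood tests in a fit of all 10 livers with a coefficient for each group (separate coefficients per guide for the guide contrast), and Benjamini-Hochberg adjustment over the 13909 genes kept. Of 24537 symbols 5807 had no count. Correlations used log2 CPM with a prior count of 2. Pairs of libraries in a group differed beyond counting noise (chi-square per degree of freedom at least 21.7), so none were merged as 1 library. Whether they come from separate animals is not shown by this. The test was tried on simulated data.

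Genes, lists, motifs and contrasts were chosen with earlier results of these data known. The text names the 8 genes, Cd44, up to 5 list genes per contrast with an adjusted p under 0.05, neighbours within 250 kb, of which 1 is not reported here, and the 6 most similar genes. Other list genes named were chosen after their values were seen. DESeq2 1.42.0, limma 3.58.1 (voom), other scalings, no filter, fits of the compared groups only and leaving out each liver were alternatives.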

Additional observations from a re-analysis of the deposited data

How the results depend on the processing

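No paired analysis was possible because no label pairs animals across groups by number. Total-count scaling of the counts of genes and the repeats for list genes were chosen after seeing the data. Of the 8 genes 0 passed in either contrast among old livers under every alternative run. The 3172 genes changed with age were 1192 with only the compared groups in the fit, and 396 (without young replicate 2) to 5327 (without old control replicate 3) when 1 liver was left out, with 1690, 1549 and 1032 without young replicate 1, young replicate 3 and old control replicate 2. The 0 genes changed between livers labelled knockout and old controls were 8 with DESeq2 and 0 to 3 (without old control replicate 1) when 1 liver was left out. The 1614 genes changed between livers labelled knockout and young livers were 3585 with total counts, 2803 with DESeq2, 969 with limma voom, 4223 with only the compared groups and 56 (without young replicate 2) to 1652 when 1 liver was left out. The 3 genes changed between guides were 10 with no filter, 73 with DESeq2, 36 with only the compared groups and 0 when any 1 knockout liver was left out, where the lone liver of an arm is assumed to vary like the other groups. In each case the cause was not tested.

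Signs turned with age for Slc30a1 under total counts (0.20) and without young replicate 1 (0.019), and for Slc39a4 without young replicate 1 (0.023). Between livers labelled knockout and young livers Slc39a4 turned under total counts (0.11), without young replicate 1 (0.28) and without knockout replicate 1 (0.030). Between livers labelled knockout and old controls the log2 fold changes ran, when 1 liver was left out, from -1.33 to 0.093 for Mt1 and from -1.66 to 0.35 for Mt2, above 0 without old control replicate 3, and from -0.070 to 0.13 for Mtf1, below 0 without knockout replicate 1 or old control replicate 2. They ran from -0.19 to 0.26 for Slc39a14, below 0 without knockout replicates 1 or 2 or old control replicate 2, and from -0.22 to 0.58 for Slc39a4, below 0 without knockout replicate 3. Between guides they ran from -0.016 to 0.093 for Slc30a1, below 0 without knockout replicate 3. The correlation of Mt1 and Mt2 stayed between 0.922 and 0.951.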
